A study of Mus musculus with 10 samples.

Results

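H3K27ac peaks away from promoters were the 1439 regions, of 9840 H3K27ac peaks in a WT and a Delta list, that lay more than 2500 bp from every transcription start site (TSS) of a protein-coding gene. The WT list held 679 such distal peaks among 4571, or 14.9% (95% Wilson interval 13.9 to 15.9), and the Delta list held 760 among 5269, or 14.4% (13.5 to 15.4). The members were chosen by measured values, namely that a peak was called for H3K27ac, and by its position. Each list was then split into shared peaks, which a peak of the other list overlapped by at least 1 bp, and unshared peaks. WT had 216 shared and 463 unshared distal peaks, and Delta had 218 and 542. The overlap that defines these classes is thus part of the selection, and the intervals given throughout cover counting error only.

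The cells were mCherry+ mesoderm, sorted at day 4 from embryoid bodies, the aggregates in which mouse embryonic stem (ES) cells differentiate. The labels give the cells as a cross of C57Bl/6 with an Sv strain, whose number differs between libraries and was not resolved here. The study states that the Scl:mCherry line was made from wild-type J1 ES cells, and gives such a cross for its mice. WT denotes Scl:mCherry cells, which make intact SCL and carry the mCherry reporter at the Scl (Tal1) locus on one allele. Delta denotes Scl d/d:mCherry cells, derived from that line and homozygous for a deletion of the basic helix-loop-helix (bHLH) domain of SCL. Each genotype was 1 line, both were selected for reporter activity of the locus that is mutated in Delta, and both were mixed with Drosophila S2 cells before chromatin immunoprecipitation (ChIP-Rx). The series held 1 library for each of 4 histone marks in each genotype plus 2 inputs, and 8 peak lists with 70826 peaks in all. With 1 library per group there was no replicate check, and no test between WT and Delta was possible. The peak lists hold no read counts, the library sizes stated by the study were not used here, and in bulk chromatin a mark in fewer cells and less mark per cell cannot be told apart. Among markers of the labelled cells, an H3K27ac peak lay within 2500 bp of the TSS of 2 of 10 day 4 mesoderm markers in WT (Lmo2 and Tal1) and of 3 in Delta (Foxf1a, Gata6 and Hand1), near the 19.9% and 22.9% of all protein-coding genes that had one. None of 8 neural (upper bound 32.4%) and none of 9 endoderm markers (29.9%) had one in either list, with bounds above the shares of all genes.

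H3K27ac is deposited by the acetyltransferases p300 and CBP at active promoters and at active enhancers, the distal elements that raise transcription from a distance. H3K4me3 typically marks promoters, and H3K27me3 is the repressive mark of Polycomb complex PRC2, so the combination of marks at a distal peak separates enhancer-like from promoter-like chromatin. SCL (TAL1) is a bHLH transcription factor without which no blood forms. It binds E-box sequences, often beside GATA sites, in complexes with LMO2, LDB1 and GATA factors, and many of its sites lie at enhancers. A nearest gene is named below for position alone, since no assay here linked a distal peak to a target gene.

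A set of 8 distal peaks is shown as the 300 bases around their midpoint, read from the + strand of NCBIM37 (mm9). The first 4 were unshared WT peaks near blood, endothelial or repressor genes, the next unshared Delta peaks near Eng and Foxf1a, and the others a shared Delta peak near Smad6 and the WT shared peak of the second highest fold enrichment near Sirt4. They were chosen as the peaks of highest fold enrichment of their class at these genes. Capitals mark GATA letters (AGATAA, where the first base may also be T and the last may also be G) and the E-boxes CAGATG and CAGCTG, on either strand. The stretches were chr4:114725089-114725388 (Tal1), chr16:95661134-95661433 (Erg), chr5:76358315-76358614 (Kdr), chr8:125244430-125244729 (Cbfa2t3), chr2:32517805-32518104 (Eng), chr8:123496872-123497171 (Foxf1a), chr9:63893048-63893347 (Smad6) and chr5:115939596-115939895 (Sirt4).
Tal1: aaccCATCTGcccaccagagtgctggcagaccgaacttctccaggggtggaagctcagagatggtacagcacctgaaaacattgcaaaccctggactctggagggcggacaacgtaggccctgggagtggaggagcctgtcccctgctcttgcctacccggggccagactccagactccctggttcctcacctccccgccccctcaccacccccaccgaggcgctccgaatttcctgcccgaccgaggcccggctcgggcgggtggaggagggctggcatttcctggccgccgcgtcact
Erg: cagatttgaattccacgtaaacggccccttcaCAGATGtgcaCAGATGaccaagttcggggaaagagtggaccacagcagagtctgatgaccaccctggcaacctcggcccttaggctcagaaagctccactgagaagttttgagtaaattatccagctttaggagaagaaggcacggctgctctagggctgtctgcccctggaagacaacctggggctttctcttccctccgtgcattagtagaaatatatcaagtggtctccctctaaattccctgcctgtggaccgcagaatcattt
Kdr: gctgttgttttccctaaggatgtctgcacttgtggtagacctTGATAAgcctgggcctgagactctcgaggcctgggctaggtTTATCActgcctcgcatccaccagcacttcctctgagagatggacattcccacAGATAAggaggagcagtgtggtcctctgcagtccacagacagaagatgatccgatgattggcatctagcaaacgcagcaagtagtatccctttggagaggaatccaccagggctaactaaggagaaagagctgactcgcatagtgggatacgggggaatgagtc
Cbfa2t3: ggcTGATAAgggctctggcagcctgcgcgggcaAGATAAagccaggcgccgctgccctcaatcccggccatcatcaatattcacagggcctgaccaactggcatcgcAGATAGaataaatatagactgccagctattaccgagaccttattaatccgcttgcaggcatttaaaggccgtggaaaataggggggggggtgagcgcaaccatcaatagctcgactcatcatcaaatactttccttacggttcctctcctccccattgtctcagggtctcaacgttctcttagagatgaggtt
Eng: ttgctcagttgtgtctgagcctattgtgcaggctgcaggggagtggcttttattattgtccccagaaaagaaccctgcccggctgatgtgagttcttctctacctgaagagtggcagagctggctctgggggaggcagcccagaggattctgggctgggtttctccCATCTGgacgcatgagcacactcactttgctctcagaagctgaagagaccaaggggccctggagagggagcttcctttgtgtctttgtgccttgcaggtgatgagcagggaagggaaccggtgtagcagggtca
Foxf1a: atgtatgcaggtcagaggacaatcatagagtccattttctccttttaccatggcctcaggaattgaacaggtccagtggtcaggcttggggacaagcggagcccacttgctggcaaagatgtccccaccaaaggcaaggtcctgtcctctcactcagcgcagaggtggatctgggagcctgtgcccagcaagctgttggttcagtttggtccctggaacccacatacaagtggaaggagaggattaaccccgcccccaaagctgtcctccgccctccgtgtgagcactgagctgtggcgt
Smad6: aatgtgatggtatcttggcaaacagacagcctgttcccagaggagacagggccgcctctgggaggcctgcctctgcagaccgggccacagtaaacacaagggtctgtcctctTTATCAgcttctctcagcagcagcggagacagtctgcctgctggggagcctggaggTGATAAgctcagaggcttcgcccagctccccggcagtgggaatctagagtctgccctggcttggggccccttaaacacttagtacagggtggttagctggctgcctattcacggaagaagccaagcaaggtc
Sirt4: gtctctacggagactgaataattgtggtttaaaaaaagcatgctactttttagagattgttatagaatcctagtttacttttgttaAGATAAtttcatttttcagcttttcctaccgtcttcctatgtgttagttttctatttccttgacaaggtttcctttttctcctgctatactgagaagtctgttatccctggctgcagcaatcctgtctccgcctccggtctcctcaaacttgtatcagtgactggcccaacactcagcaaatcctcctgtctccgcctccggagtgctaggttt
The Kdr and Cbfa2t3 stretches each held 3 sets of GATA letters, the Erg stretch 2 CAGATG E-boxes, and the Tal1 and Eng stretches 1 each. The Foxf1a stretch held none of these letters, while the shared Smad6 stretch held GATA letters 2 times and the Sirt4 stretch 1 time.

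Most distal peaks stood far from the nearest coding TSS. The median distance was 22523 bp among WT peaks and 22754 bp among Delta peaks. Shared peaks were the closer ones, at a median of 18964 bp (WT) or 18887 bp (Delta), and unshared peaks were further away, at 23946 bp or 24120 bp. Peaks more than 100 kb from any coding TSS made up 15.8% (12.7 to 19.4) of WT unshared and 10.7% (8.37 to 13.6) of Delta unshared peaks, but 5.56% (3.21 to 9.46) and 5.50% (3.18 to 9.37) of the shared ones. The 2500 bp limit ran through a thin part of the lists. The WT peaks just inside the set lay 2545 bp from Pkd1l2, 2569 bp from Csnk1e and 2597 bp from Cfc1, and those just outside lay 2441 bp from Igf2bp3, 2449 bp from Zfp36l1 and 2469 bp from Tnfrsf1a. In Delta the peaks just inside lay 2505 bp from Trappc3 and 2512 bp from both Ncrna00085 and Grrp1, and those just outside 2431 bp from Pcdhgc5, 2442 bp from Rabepk and 2466 bp from Hdgf.

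Unshared peaks lay within genes more often than shared peaks. The midpoint fell in a protein-coding gene, nearly always in an intron, for 51.6% (47.1 to 56.1) of WT unshared and 44.3% (40.2 to 48.5) of Delta unshared peaks, against 32.9% (71 of 216) and 33.5% (73 of 218) of shared peaks. One very long read-through gene model on chromosome 8, Gm20388, contributed to this. Not counting it, the unshared shares were 48.8% and 41.3%, still above the shared ones of 32.4% and 33.0%. The difference was not seen off H3K4me3, where 57.6% (47.0 to 67.6) of WT shared and 54.7% of WT unshared peaks lay in a gene, and 56.4% (46.3 to 66.0) and 47.7% in Delta. Coding exons and UTRs were rare places for a distal peak, with 6 and 10 of 679 midpoints in WT and 6 and 11 of 760 in Delta.

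**Figure D1:**
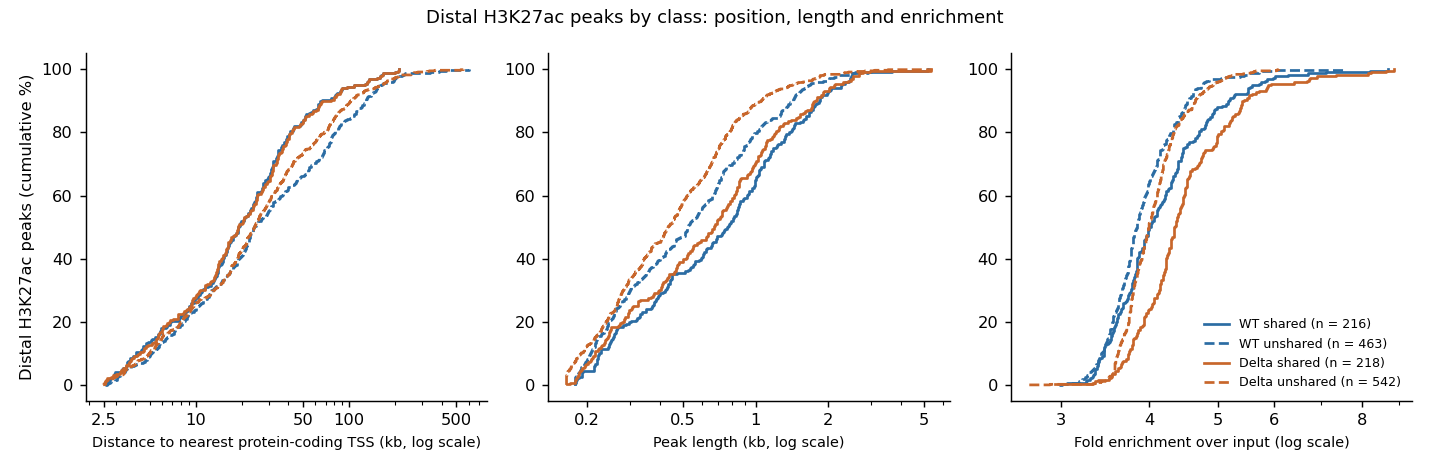
Cumulative percent of distal H3K27ac peaks (vertical axes) against distance to the nearest protein-coding TSS, peak length (both in kb) and fold enrichment over input, on log scales, for WT (blue) and Delta (orange) shared (solid) and unshared (dashed) peaks. The shared medians of both genotypes are alike in distance (18964 and 18887 bp), and the unshared medians are further out in distance and lower in length and fold.

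Part of the distal set sat at promoters of non-coding genes. A TSS of another gene class (snRNA, snoRNA, miRNA, lincRNA, processed transcript or pseudogene) lay within 2500 bp of 27.8% (22.2 to 34.1) of WT shared and 61 of 218 Delta shared peaks (22.4 to 34.3%), but of 7.13% (5.12 to 9.84) of WT unshared and 9.04% (6.91 to 11.8) of Delta unshared peaks. The strongest peaks were prominent among them. The fold enrichment is the signal at a peak divided by that expected from input, as the peak caller gave it. The 3 shared WT peaks of highest fold lay upstream of Pum2 (8.68), over a U4 small nuclear RNA gene 4502 bp from Sirt4 (8.21), and over a U2 gene 21124 bp from Trappc6b (7.11). U1, U2, U4, U5 and U6 small nuclear RNAs are the RNA core of the spliceosome. In Delta the corresponding 3 lay over the lincRNA D230017M19Rik, 31656 bp from Mreg (8.87), 10 bp from a U6 gene (8.64, nearest coding gene Arhgap5), and upstream of Pum2 again (8.23). Of the 10 shared peaks of highest fold, 4 in each list lay within 2500 bp of an snRNA gene, against 4.63% (2.53 to 8.31) of all shared peaks in WT and 4.59% (2.51 to 8.24) in Delta. Even the WT unshared peak of highest fold, at 7.57 near Kif2c, lay 5 bp from a U5 gene. The next were enhancer-like: one 19618 bp downstream of Coro2b (6.22) and one 67404 bp upstream of Zeb2 (6.00), both off H3K4me3 in both genotypes. Zeb2 encodes a zinc-finger repressor with roles in epithelial-mesenchymal transition and in blood stem cells. The Delta unshared peaks of highest fold lay 71 bp from the small nucleolar RNA host gene Snhg7 near Fam69b (6.10), in an intron of C530008M17Rik (6.07) and 23821 bp upstream of Zfp541 (6.05).

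Few distal peaks had a counterpart in the other genotype. A Delta peak overlapped 31.8% (28.4 to 35.4) of WT distal peaks, and a WT peak 28.7% (25.6 to 32.0) of Delta distal peaks, where the whole lists stood at 73.5 and 63.7% and promoter peaks at 80.8% (79.5 to 82.0) and 69.6% (68.3 to 70.9). These are descriptions, since the split is part of how the classes were made. Confidence of the peak call, given by the caller as −log10 q, differed too, with medians of 2.59 in WT and 2.22 in Delta distal peaks against 3.84 and 3.33 at promoters. By bands of −log10 q the shares were as follows. Of WT distal peaks with −log10 q from 1 to 2, 18.5% had a counterpart, against 60.9% of promoter peaks, and from 3 to 5 the values were 40.1% and 81.3%. Above 5 they were 66.2% (54.0 to 76.5, n = 65) and 93.7%. Delta distal peaks gave 12.5, 47.8 and 79.6% in the same bands, against 34.2, 79.5 and 93.3% at promoters. As a further description of the split, a peak of the other list came within 1000 bp of 3.89% (2.47 to 6.06) of WT unshared and 4.43% (2.99 to 6.50) of Delta unshared peaks, and within 5000 bp of 9.29% and 10.1%. The median gap to the nearest peak of the other genotype was 74423 bp for WT unshared and 63342 bp for Delta unshared peaks.

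Delta had 1.12 times as many distal peaks as WT (1.01 to 1.24), close to the ratio of promoter peaks at 1.16 (1.11 to 1.21). Its direction depended on the threshold. With −log10 q of at least 3 in every list the ratio was 0.813, with equal numbers of top peaks from each H3K27ac list 0.775, and with a fold of at least 4 it was 1.59, at a limit applied to lists whose folds differ at promoters too.

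Shared peaks were longer and more confidently called than unshared ones in both genotypes. The split rests on overlap with a called peak, which long and strong peaks meet more easily, so these values only describe the classes. The median length was 762 bp for WT shared and 522 bp for WT unshared peaks, and 670 and 433 bp in Delta, while promoter peaks had medians of 535 and 538 bp. Despite their greater number, Delta unshared peaks covered 308 kb and WT unshared peaks 315 kb. A −log10 q of at least 3 was reached by 56.5% (49.8 to 62.9) of WT shared and 30.2% (26.2 to 34.6) of WT unshared peaks, and by 54.6% (48.0 to 61.1) and 17.3% (14.4 to 20.8) in Delta. Median fold enrichment was 4.01 and 3.84 in WT and 4.35 and 4.00 in Delta. Promoter peaks showed the same offset between the lists, at 4.18 and 4.40, so no difference in fold between the genotypes is read from these values or from the plot of pairs. The longest shared peaks were the same places in both lists. One covered the long non-coding RNA gene Neat1, nearest coding gene Frmd8, and measured 5202 bp (WT) or 5364 bp (Delta), and one lay in an intron of the protocadherin gene Pcdhgc5, with 3665 and 2988 bp. The 2 longest unshared peaks lay 19709 bp upstream of Tbc1d7 (3186 bp) and in a Tspan9 intron (3113 bp) in WT, and near Krtap5-4 (5363 bp) and Ccdc102a (3545 bp) in Delta.

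The WT distal peaks and their Delta counterparts formed 220 pairs, in 216 of which the Delta peak was distal as well. The Delta peak was the longer one in 107 pairs and the WT peak in 113. The median overlap was 391 bp, against median lengths of 762 bp for WT shared and 670 bp for Delta shared peaks.

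**Figure D2:**
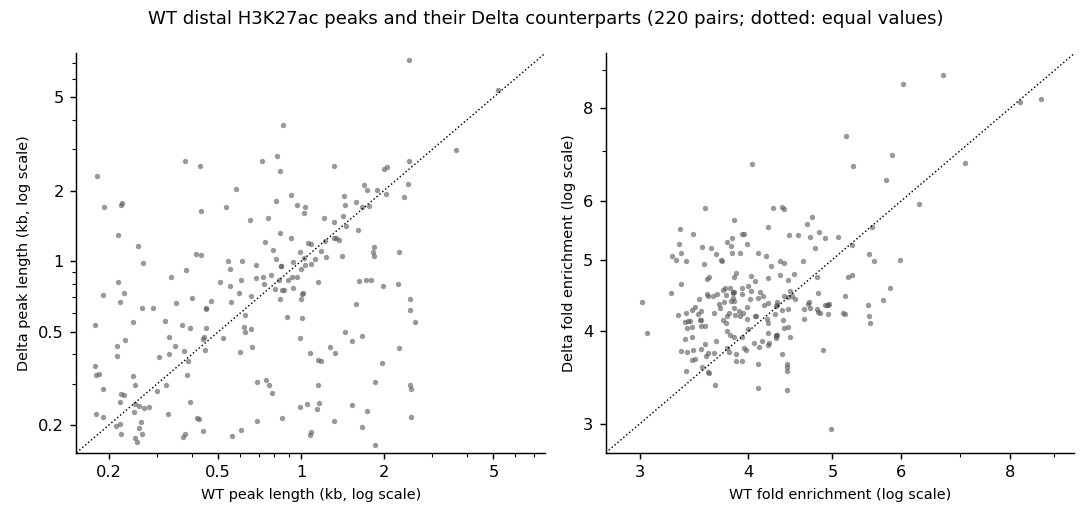
Length (left, kb) and fold enrichment over input (right) of 220 pairs of a WT distal H3K27ac peak (horizontal axes) and an overlapping Delta peak (vertical axes), on log scales, with 1 point per pair and a dotted line at equal values. Lengths scatter on both sides of the line, with the Delta peak longer in 107 pairs and the WT peak in 113.

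Distal H3K27ac peaks carried H3K4me3 much less often than the lists they came from, and the shared ones carried it most. H3K4me3 of the same genotype overlapped 29.0% (25.7 to 32.5) of WT distal and 32.2% (29.0 to 35.6) of Delta distal peaks, where the whole H3K27ac lists stood at 88.4 and 89.0%. Among WT peaks the share was 60.6% (54.0 to 66.9) for shared and 14.3% (11.4 to 17.7) for unshared peaks. Among Delta peaks it was 56.9% (50.2 to 63.3) and 22.3% (19.0 to 26.0). Seen from the other side, 66.5% (59.6 to 72.7) of the 197 WT distal peaks on H3K4me3 had a Delta counterpart, and 17.6% (14.5 to 21.3) of the 482 off it. In Delta these values were 50.6% (44.4 to 56.8) of 245 and 18.3% (15.2 to 21.8) of 515. Where H3K4me3 was present it was mostly present in both genotypes. Of 463 WT unshared peaks, 53 lay on H3K4me3 in both genotypes, 13 in WT alone and 7 in Delta alone, and of 542 Delta unshared peaks the numbers were 105 in both, 16 in Delta alone and 17 in WT alone. Distal peaks on H3K4me3 were also nearer to non-coding gene starts, with 31.5% (25.4 to 38.3) in WT and 29.0% (23.7 to 35.0) in Delta within 2500 bp of one, against 6.43 and 7.57% of those off H3K4me3.

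H3K27me3 lay under few distal peaks. It overlapped 6.33% (4.74 to 8.42) of WT distal and 5.13% (3.78 to 6.94) of Delta distal peaks in the same genotype, against 41.2 and 34.3% of the whole lists. Shared peaks again stood higher, with 16.7% (12.3 to 22.2) in WT and 24 of 218 (7.51 to 15.9%) in Delta, than unshared ones, with 1.51% (0.734 to 3.09) and 2.77% (1.68 to 4.52). All 43 WT distal peaks on H3K27me3 were also on H3K4me3, the pairing of opposing marks known as bivalent chromatin, and so were 37 of the 39 in Delta. A broad peak on bulk chromatin cannot show whether the marks sit on the same molecules.

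Of the 463 WT unshared peaks, 13 lay on H3K27me3 in Delta alone and 4 in WT alone. The genes named here were picked after their values were seen. The former included a peak in an intron of Gata2, a GATA factor of blood progenitors (fold 4.05, −log10 q 3.69), and the intronic peak of Tal1 itself (3.92, 2.28). They also included peaks near Sfrp1, which encodes a secreted Wnt antagonist, Lhx5, a LIM-homeobox gene, Slc2a3, a glucose transporter gene, and Gse1. The rest of the 13 were nearest to Ccdc28a, Ppp1r13b, Matr3, Pard6b, Syde2, Fat1 and Asb5. Those in WT alone included peaks near Cd34, Kcnq1 and Glg1. Of the 542 Delta unshared peaks, 8 lay on H3K27me3 in WT alone and 3 in Delta alone. The 8 included one near Id2, an inhibitor of bHLH factors (fold 4.80), and one near Bcl9l, a Wnt pathway coactivator (4.60). The shares of the whole lists on H3K27me3 in WT alone or Delta alone are not given here. No gain or loss of H3K27me3 is read from these counts. H2AK119ub, the mark of Polycomb complex PRC1, overlapped 9 of 679 WT and 1 of 760 Delta distal peaks in the same genotype, beside 0.809 and 0.190% of the whole lists. Peaks with no other mark in their own genotype made up 84.9% (81.3 to 87.9) of WT unshared and 77.3% (73.6 to 80.6) of Delta unshared peaks, but 82 of 216 (31.8 to 44.6%) and 94 of 218 (36.7 to 49.8%) of shared ones.

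**Figure D3:**
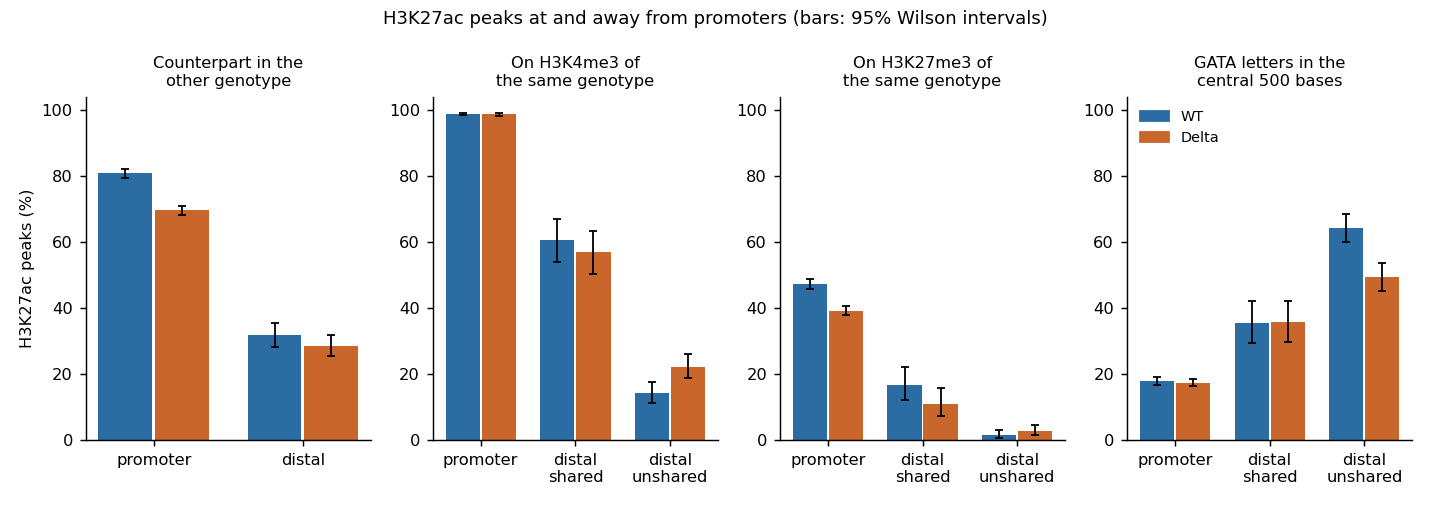
Percent of H3K27ac peaks at promoters and away from them (vertical axis) with a counterpart in the other genotype, on H3K4me3, on H3K27me3 and with GATA letters in the central 500 bases, for WT (blue) and Delta (orange), with 95% Wilson intervals for counting error. Shared distal peaks lie between promoter and unshared peaks in each of the last 3 panels, as with H3K4me3 in WT at 60.6% for shared and 14.3% for unshared peaks.

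WT distal peaks had 554 nearest genes and Delta distal peaks 568, of which 228 were the same genes, 41.2% of the WT and 40.1% of the Delta genes. Of all 22232 protein-coding gene symbols, 1.72% were nearest to a WT unshared peak and 1.88% to a Delta unshared one. In the lists as deposited, 44 genes were nearest to at least 3 distal peaks in Delta and 21 in WT (0.198 and 0.0945% of all genes). Delta had 760 distal peaks and WT 679, a ratio that reversed to 0.813 with −log10 q of at least 3. The count of genes was not repeated at that threshold.

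The 5 genes with most WT distal peaks were Enc1 and Gse1 with 6 each, Myh9 and Smad6 with 5 each, and Nanos3 with 4. The Enc1 peaks were all unshared and stood in 1 run from 193067 to 221745 bp downstream of its TSS, with folds from 3.49 to 4.82, and no Delta distal peak had Enc1 as its nearest gene. Enc1 encodes an actin-binding Kelch protein. The 6 Gse1 peaks were unshared as well, 5 of them 114416 to 154100 bp upstream, while 3 unshared Delta peaks lay downstream inside the gene. The Gse1 promoter carried H3K27ac in both genotypes. Smad6 and Nanos3 showed the reverse, since all 5 and all 4 of their WT peaks were shared. Smad6 encodes an inhibitor of BMP signalling and is itself induced by it, and Nanos3 encodes an RNA-binding protein of germ cells.

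In Delta, Smad6 led with 8 peaks, 4 of them shared, followed by Smad7 with 7, Zmiz1 and Rgs3 with 6 each, and 6 genes with 5 each (1700001O22Rik, Irf8, Krtap5-4, Lao1, Myh9 and Nanos3). The 4 additional Smad6 peaks stood 44519 bp upstream and 80263 to 101860 bp downstream, with folds from 3.77 to 4.24. Smad7, the related inhibitor of TGF-beta signalling, had 5 unshared and 2 shared Delta peaks and 1 unshared and 2 shared WT peaks. The 6 Rgs3 peaks were unshared, with folds from 3.66 to 4.30, and no WT distal peak had this gene, an RGS-family regulator of G-protein signalling, as its nearest. The 5 Irf8 peaks and 3 Foxf1a peaks formed 1 neighbourhood on chromosome 8. These 8 unshared Delta peaks lay from -265.13 to -111.16 kb of the Foxf1a TSS, all inside the Gm20388 model, and WT had no distal peak there. Foxf1a, named here after its values were seen, encodes a forkhead factor of lateral plate and splanchnic mesoderm. Its promoter had an H3K27ac peak in Delta and none in WT. The strongest of the 8 (fold 4.54, −log10 q 3.98) lay on H3K27me3 in both genotypes.

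**Figure D4:**
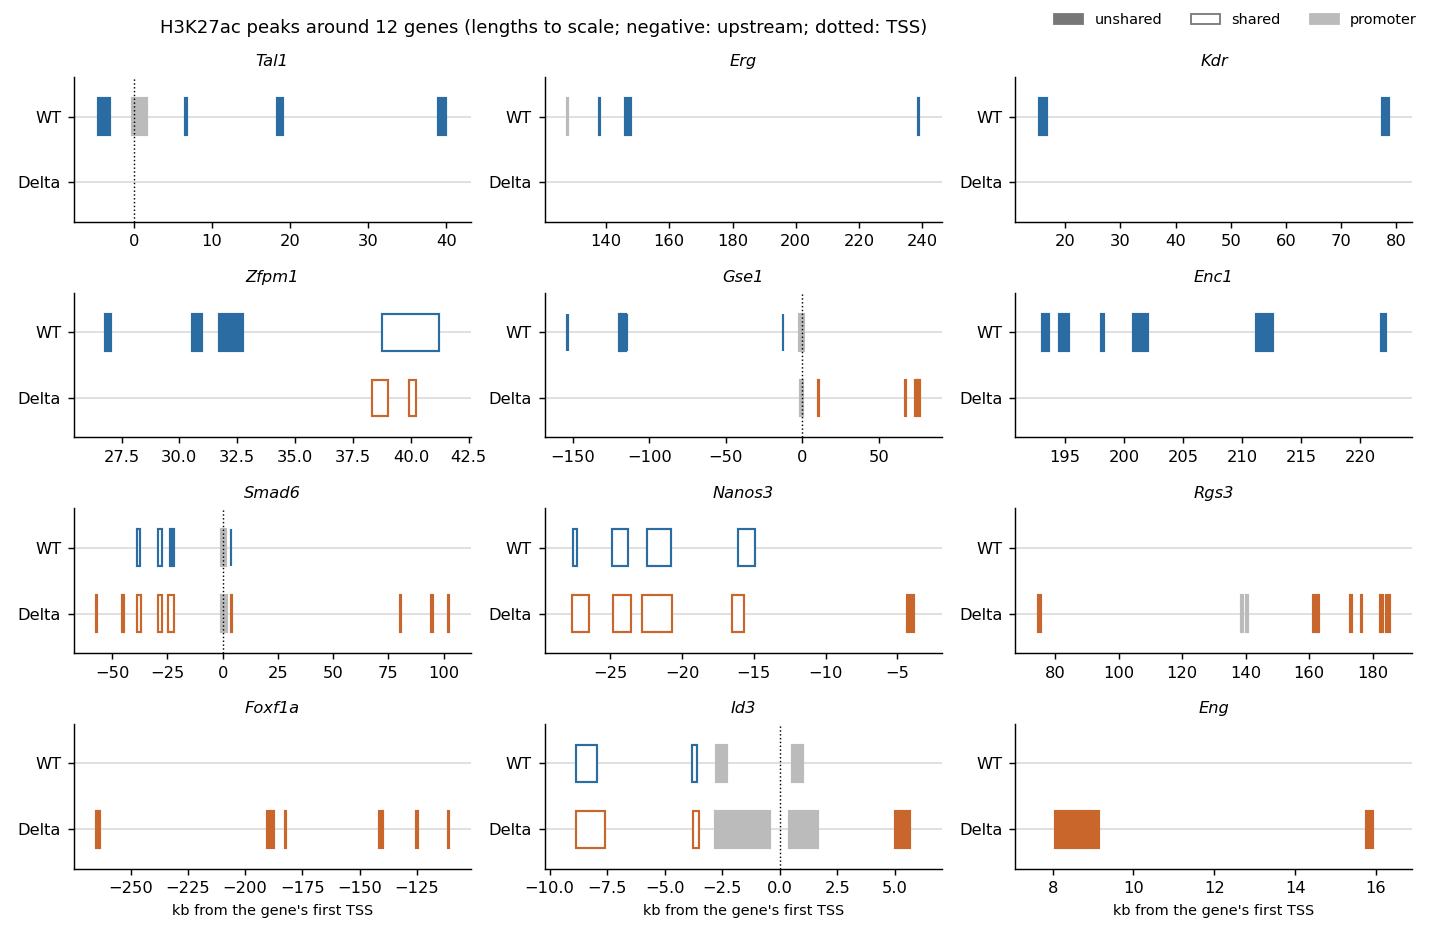
H3K27ac peaks of WT (blue, upper row of each panel) and Delta (orange, lower row) around 12 genes, drawn to scale in kb from the first TSS of each gene along its strand, with unshared distal peaks filled, shared distal peaks open and promoter peaks grey. Not every promoter peak is drawn, and those of Zfpm1 (both genotypes), Foxf1a and Eng (Delta) are missing. Tal1, Erg, Kdr and Enc1 show filled peaks in the WT row alone, Rgs3, Foxf1a and Eng in the Delta row alone, and Nanos3 shows 4 open peaks in both rows beside 1 filled Delta peak.

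Of 32 blood regulators and markers, 8 were the nearest gene of a WT unshared peak (interval 13.3 to 42.1%), and 0 of a Delta distal peak of either class (upper bound 10.7%). The 8 genes were Cd34, Erg, Fli1, Gata2, Lmo2, Runx1, Stat5a and Tal1. With −log10 q of at least 3 there were 7, all but Runx1, and 0 in Delta, where all genes gave 0.594 and 0.382%. All blood-list peaks were unshared. Among these, 5 genes (Erg, Fli1, Gata2, Lmo2 and Tal1) also had promoter H3K27ac in WT and not in Delta, while Runx1, which encodes the factor required for haematopoietic stem cells to emerge, had it in Delta and not in WT. Over all 32 genes, promoter H3K27ac marked 12 in WT and 3 in Delta (37.5 and 9.38%), beside 19.9 and 22.9% of all genes. The share of all genes with it in 1 genotype alone is not given here.

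At Tal1, WT had unshared peaks at several positions, some of them known from textbook work as enhancers. One lay from -4.52 to -3.07 kb (chr4:114724513-114725965, 1453 bp, fold 4.09, −log10 q 3.02), one from 6.53 to 6.86 kb in an intron, one from 18.31 to 19.13 kb and one from 38.88 to 39.96 kb. The intronic one lay on H3K4me3 in both genotypes and on H2AK119ub in WT, with a CpG-rich centre (65.0% GC, CpG ratio 0.78). Background knowledge places a haematopoietic progenitor enhancer at the third and an erythroid enhancer at the fourth of these positions. By distance the last 2 were assigned to Pdzk1ip1, the neighbouring gene, with folds of 3.92 and 3.76. No Delta H3K27ac peak was found at any of them or at the Tal1 promoter. The Delta cells carry their deletion in this gene, so a change of the locus by the deletion and a change through SCL cannot be told apart.

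Erg, an ETS factor of blood stem cells and endothelium, had 3 WT unshared peaks. The longest was intronic (chr16:95660430-95662138, 1709 bp, fold 4.25, −log10 q 4.52), 18772 bp from the nearest TSS, and 550657 bp from the nearest Delta peak. The related gene Fli1 had a peak 14433 bp upstream (fold 4.28, −log10 q 3.53). Lmo2, the bridging partner of SCL, had one 63561 bp upstream (4.22, 3.63), and Gata2 the intronic one described above. Stat5a, which encodes a transducer of cytokine signals, had a pair of peaks that lie in an intron of Stat3 (folds 4.42 and 3.67), and Runx1 had one in an intron with the lowest −log10 q of these genes (3.74, 1.72). The Cd34 peak stood 54 bp from the TSS of the lincRNA A330023F24Rik and on H3K4me3 in both genotypes, so its form was that of a non-coding promoter.

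Endothelial genes, close in origin to blood, were nearest to unshared peaks of both genotypes, with 1 gene, Nrp2, in both. Over all genes, 48 of the 382 nearest to a WT unshared peak were also nearest to a Delta unshared one. WT peaks marked 10 of 34 (29.4%, 16.8 to 46.2), namely Aplnr, Cdh5, Efnb2, Egfl7, Ets1, Ets2, Flt1, Kdr, Nrp2 and Sox7. Delta peaks marked 5 (14.7%, 6.45 to 30.1), namely Eng, Foxc2, Hey1, Notch1 and Nrp2. Counting peaks with −log10 q of at least 3, there were 6 and 1, beside 0.594 and 0.382% of all genes. The peak in a Kdr intron (chr5:76357733-76359197, 1465 bp) had a fold of 5.38 and a −log10 q of 5.93. Kdr encodes FLK1, the VEGF receptor of early mesoderm and endothelium. The peak in an intron of Flt1, another VEGF receptor gene, had 5.73 and 6.35. At the other WT genes the folds ran from 3.26 (Efnb2, an ephrin ligand of arteries) to 4.45 (Aplnr, the apelin receptor), with Cdh5, the cadherin of endothelial junctions, at 3.77. Of the 10 WT genes, 7 (Kdr and Flt1 among them) had no promoter H3K27ac peak in WT. Most genes lack one, since 19.9% of all protein-coding genes had such a peak in WT. In the lists as a whole, −log10 q of unshared peaks had a median of 2.05 in Delta and 2.40 in WT. The Delta peaks near these 5 genes had values from 1.73 to 3.88. At Eng, which encodes a TGF-beta co-receptor, they lay in introns with folds of 4.16 and 4.69, and at Notch1, a receptor of endothelial and blood fate, one lay in an intron (3.89) and one upstream (4.14).

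Among 10 repressor genes linked to SCL, WT unshared peaks marked 4 (Cbfa2t3, Gse1, Pcgf5 and Zfpm1) and Delta unshared peaks 2 (Gse1 and Rybp). Cbfa2t3 encodes the corepressor ETO2, Zfpm1 the GATA cofactor FOG1, and Rybp and Pcgf5 subunits of PRC1. Pcgf5 had an unshared WT peak 87344 bp upstream with a fold of 3.85, and also a shared distal peak (folds 3.39 in WT and 4.98 in Delta). The Cbfa2t3 peak 20947 bp upstream (chr8:125243956-125245205, 1250 bp) had a fold of 4.26 and a −log10 q of 6.28. Cbfa2t3, Gse1 and Zfpm1 lie on chromosome 8, and without chromosomes 1 and 8 the numbers were 1 in WT (Pcgf5) and 1 in Delta (Rybp). Rybp had Delta unshared peaks 93837 bp downstream (fold 3.80) and 48352 bp upstream (5.66, −log10 q 5.02), and its promoter carried H3K27ac in both genotypes. Zfpm1 had 3 unshared WT peaks with folds from 3.33 to 4.35, and 1 shared Delta peak (3.54), whose WT counterpart was nearest to the neighbouring gene Trhr2. Counting repressor genes with such peaks of −log10 q 3 or more, there were 3 in WT and 2 in Delta, beside 0.594 and 0.382% of all genes.

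Signalling genes of mesoderm showed the larger number in Delta, 6 of 31 (Bmp4, Id2, Id3, Notch1, Smad6 and Smad7) against 3 in WT (Bmp2, Sfrp1 and Smad7), with overlapping intervals of 9.19 to 36.3% and 3.35 to 24.9%. Each genotype had 1 once −log10 q had to reach 3 (Id2 in Delta, Bmp2 in WT), beside 0.382% (Delta) and 0.594% (WT) of all genes. Bmp4 encodes the ligand that induces ventral mesoderm, and Id2 and Id3 are targets of BMP signalling. The Bmp4 peaks stood 45697 and 183574 bp upstream with folds of 4.47 and 3.66. The Id2 peaks stood 2585 and 3941 bp upstream with folds of 3.74 and 4.80. The Bmp2 peaks, 120375 and 121746 bp upstream, had folds of 3.73 and 4.78, the latter with a −log10 q of 6.86.

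Genes of other fates gave 0 to 2 genes per list, to be read beside the 1.72 and 1.88% of all genes. One of 28 cardiac genes was marked in each, Gata4 in WT by peaks 63815 and 66661 bp upstream (folds 3.29 and 3.85) and Irx3 in Delta by 1 peak 89393 bp downstream (4.33). The study itself places Irx3 among paraxial genes. With −log10 q of at least 3 neither gene was marked. No WT peak and 1 Delta peak, near Foxc2 (4.18), marked the 23 paraxial mesoderm genes. None marked the 17 primitive streak and posterior genes, where 0 allows up to 18.4%. Pluripotency and epiblast genes were marked in 2 of 20 cases in WT (Dppa4 and Lin28a) and 1 in Delta (Tbx3). Promoter H3K27ac marked 1 cardiac gene in WT and 4 in Delta, and 0 and 3 primitive streak genes. It marked 0 paraxial genes in both, and 3 and 4 pluripotency genes, beside 19.9 and 22.9% of all genes.

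The study named genes as direct SCL targets from expression and SCL binding in FLK1+ cells of day 3.5, in libraries other than these. Of 504 targets activated in WT that matched a symbol, 105 were the nearest gene of a WT unshared peak (20.8%, 17.5 to 24.6) and 29 of a Delta unshared peak (5.75%, 4.04 to 8.14). All genes gave 1.72 and 1.88%. With −log10 q of at least 3 the numbers were 46 and 5 (9.13 and 0.992%, against 0.594 and 0.382% of all genes). Leaving out peaks on chromosomes 1 and 8, they were 79 and 23 (15.7 and 4.56%, against 1.36 and 1.58%). Genes on these chromosomes stayed in the totals, so the latter percentages are lower by construction. Of 256 repressed targets, 7 were marked in WT (2.73%, 1.33 to 5.54) and 13 in Delta (5.08%, 2.99 to 8.49), intervals that overlap. The direction reversed with −log10 q of at least 3, at 3 in WT and 1 in Delta (1.17 and 0.391%, against 0.594 and 0.382% of all genes). Without peaks on chromosomes 1 and 8 the repressed targets marked were 4 and 11 (1.56 and 4.30%). Promoter H3K27ac marked 113 activated targets in WT and 105 in Delta of 504 (22.4 and 20.8%), near the 19.9 and 22.9% of all genes. It marked 22 and 48 of 256 repressed targets (8.59%, 5.74 to 12.7, and 18.8%, 14.4 to 24.0). Since these genes were chosen partly for SCL bound nearby, they are not independent of where enhancers lie.

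**Figure D5:**
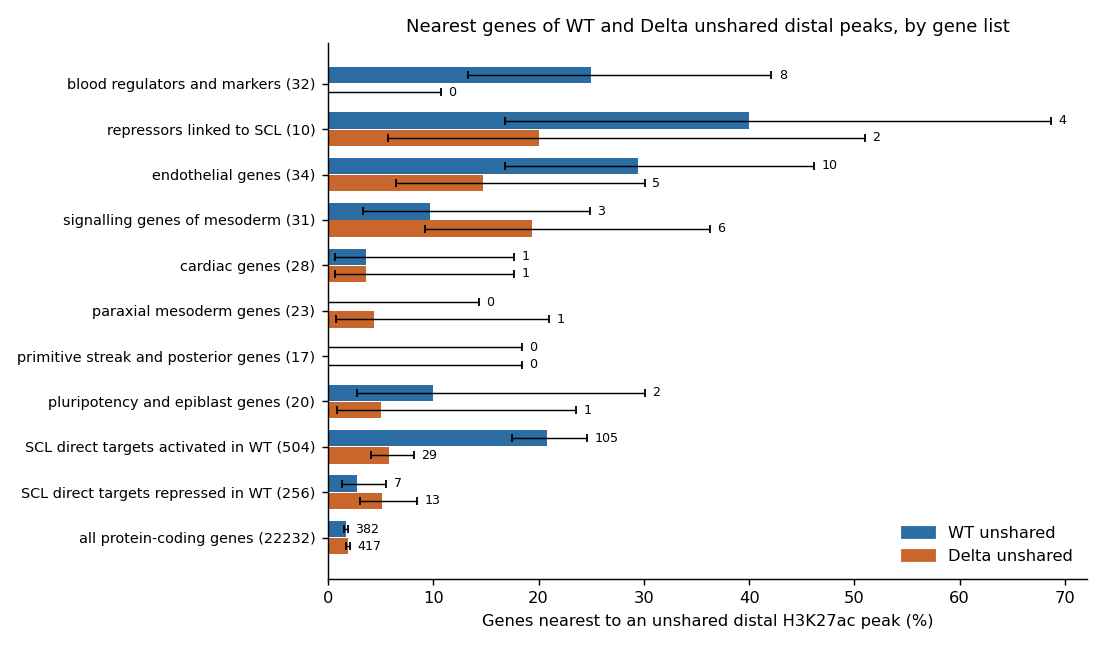
Percent of the genes of each list (horizontal axis, list size in brackets) that were the nearest protein-coding gene of a WT unshared (blue) or Delta unshared (orange) distal H3K27ac peak, with the number of genes beside each bar and 95% Wilson intervals for counting error. WT bars are longer for blood, repressor, endothelial, pluripotency and activated SCL target genes (105 against 29 genes in the last). Delta bars are longer for signalling, paraxial and repressed SCL target genes and slightly for all genes. The intervals overlap in each of these lists except blood and activated SCL target genes.

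The sequence of the classes differed beyond what the rule used. The central 500 bases had a median GC content of 56.6% in WT shared and 57.0% in Delta shared peaks, 49.2% in WT unshared and 52.0% in Delta unshared peaks, and 67.0 and 67.2% at promoter peaks. The ratio of observed to expected CpG, low where CpG has been lost over evolution and high in CpG islands, had medians of 0.48 and 0.54 in shared peaks, 0.22 and 0.25 in unshared peaks, and 0.87 and 0.86 at promoters. Shared peaks off H3K4me3 had 0.25 in WT and 0.22 in Delta, near the unshared value.

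GATA letters stood in 64.4% (59.9 to 68.6) of WT unshared and 49.4% (45.3 to 53.6) of Delta unshared peaks, in 35.6 and 35.8% of shared peaks, in 699 of 3892 WT promoter peaks (16.8 to 19.2%), and in 36.7% of windows of the same length around all 22366 protein-coding TSSs. GC content moves with this count, and its part was examined within a band. Among peaks of 45 to 55% GC the WT and Delta unshared values were 65.4% (59.6 to 70.7) and 57.7% (52.2 to 63.0). Off H3K4me3 they were 69.5% (64.8 to 73.8) and 54.2% (49.4 to 58.9), and with both limits 66.5% (60.6 to 72.0) and 58.0% (52.1 to 63.6), with intervals that overlap. With −log10 q of at least 3 they were 62.9% of 140 and 31.9% of 94, peaks of which 28 in WT and 44 in Delta lay on H3K4me3. The part of GC content in the difference beyond these bands was not tested.

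For the other letters the WT and Delta unshared intervals overlapped. CAGATG, an E-box bound by SCL heterodimers, stood in 33.0% (28.9 to 37.5) of WT unshared and 27.9% (24.3 to 31.8) of Delta unshared windows and in 23.2% of TSS windows. CAGCTG, an E-box bound by several other bHLH factors, stood in 25.3% (21.5 to 29.4) and 31.0% (27.2 to 35.0), against 26.2% of TSS windows. ETS letters (CAGGAA or CCGGAA) gave 58.1% (53.6 to 62.5) and 57.0% (52.8 to 61.1), with 57.1% of TSS windows, and the AP-1 letters TGAGTCA 8.86% (6.59 to 11.8) and 8.30% (6.26 to 10.9), with 6.03% of TSS windows. The E-box/GATA composite, CTG and GATAA separated by any 8 bases as known for the SCL complex, was found in 17 of 463 WT unshared windows (3.67%, 2.30 to 5.80), in 7 of 542 Delta unshared ones (1.29%, 0.627 to 2.64) and in 0.836% of TSS windows. All motifs were read on both strands, GATA letters inside the composite also count as GATA, and a match is a run of letters rather than a bound site.

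Chromosome 8 held more distal peaks than its length. It is 4.99% of the genome and held 13.1% (10.8 to 15.9) of WT distal peaks (89) and 9.87% (7.95 to 12.2) of Delta distal peaks (75), against 6.58 and 6.74% of promoter peaks. Chromosome 1, 7.47% of the genome, held 8.10 and 7.76%. Chromosome X, 6.31% of the genome, held 4 and 7 peaks (0.589 and 0.921%), beside 0.668 and 0.954% of promoter peaks.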

How the data were processed

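ChIP-Rx libraries of 4 histone marks in each genotype, and 2 inputs in all, were made from day 4 mCherry+ cells, and the 8 peak lists were used. Per the labels and the study's methods the authors aligned reads to mm9 (spike-in to dm3) and called broad peaks against the input with MACS2 2.0.10, and the deposited lists hold for each peak a fold enrichment over input, −log10 p and −log10 q values and a score. The score was not used. The lists hold no read counts, the library sizes stated by the study were not used here, and Wilson intervals cover counting error only. Replicates were absent, so no test between genotypes was run. TSSs, gene bodies and sequence came from NCBIM37 with GENCODE M1. A peak was distal at more than 2500 bp from every protein-coding TSS, and overlap meant at least 1 bp. The nearest gene was that of the closest coding TSS. Base composition and motifs were read in 500 bases around each midpoint. Peaks named were the 3 of highest fold and the 2 longest of each class and the 3 on each side of the 2500 bp limit. Genes named were the 5 nearest to most peaks per list (ties included) and the members of gene lists. The lists were written from general knowledge, except the SCL targets, whose names are the study's. Members and lists were chosen with earlier results of these data known. Python 3.11.15, numpy 2.4.6, scipy 1.17.1, matplotlib 3.10.9 and bedtools 2.31.1 were used, and the overlap code was tested on simulated data. Alternatives changed the TSS limit, the TSS set, the overlap, the joining of peaks and the peak threshold, equalised the lists, or left out chromosomes 1 and 8.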

Additional observations from a re-analysis of the deposited data

How the results depend on the processing

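No paired analysis was possible because each mark had 1 library per genotype, and no library could be left out. Shares are given as WT, then Delta. With −log10 q of at least 3 in every list, 9.03% and 7.53% of peaks were distal and the ratio of Delta to WT distal peaks reversed to 0.813. WT distal peaks were then on H3K4me3 in 41.6% and on H3K27me3 in 3.82%, and Delta ones had a counterpart in 36.2% and H3K4me3 in 50.2%. With a fold of at least 4 the distal shares were 10.6% and 11.4% and the ratio 1.59, H3K27me3 lay under 1.09% and 1.83%, and 20.6% of Delta distal peaks had a counterpart. A TSS limit of 1000 bp gave distal shares of 16.4% and 16.3% with H3K4me3 at 33.8% and 36.9%, and 5000 bp gave 13.2% and 12.8%. Counting TSSs of every transcript type gave 12.3% and 11.9%, counterparts at 25.9% and 23.5%, H3K4me3 at 22.5% and 26.5%, and WT H3K27me3 at 3.39%. Requiring cover of at least 50% of a peak gave counterparts at 22.5% and 21.4%, H3K4me3 at 24.4% and 27.5%, and H3K27me3 at 4.57% and 3.55%. Joining peaks up to 3000 bp apart gave distal shares of 13.6% and 13.1%. With equal numbers of top peaks, the Delta distal share was 11.5%, the ratio reversed to 0.775, counterparts stood at 27.8% and 35.7%, and Delta H3K4me3 at 40.5%. Without chromosomes 1 and 8 the WT distal share was 13.7%. The cause of these shifts was not tested. The settings for gene lists and GATA letters by q, chromosome, GC band and H3K4me3 were chosen after seeing the data.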
